A study of Rattus norvegicus with 8 samples.

Results

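The 10 genes described here encode catenins and cadherins, the proteins of the adherens junction and of a related polarity complex, in the enamel organ of the rat incisor: Ctnna1, Ctnna2, Ctnnb1, Ctnnd1, Cdh1, Cdh2, Cdh3, Cdh11, Celsr2 and Celsr3. They were chosen by results of these same arrays, the differences between secretory and maturation signals, together with their shared family, so their differences between the stages are given as a description, with no test. Probes were taken by the gene symbol printed on the array, which gave 9 probes of 8 genes among 21558 gene symbols and 22523 probes in all. Of the 9, 8 were detected on at least 1 array and 6 on all 8. Ctnna1 was found only through its gene ID, under the older symbol Catna1, and no probe was matched to Cdh2 (N-cadherin) by symbol or gene ID. From the mandibular incisors of each of 4 male rats, Wistar in the labels and Wistar Hannover in the methods, 4 weeks old, the enamel organ of the secretory stage and that of the maturation stage were taken as 1 sample each, and the labels name no treatment or genetic change in either stage. The total RNA of each sample was read on 1 array of the RatRef-12 v1 BeadChip type, an Illumina format on which many beads carry the same probe. The enamel organ is a layer of several cell types, so fewer cells of a type and less RNA per cell cannot be told apart in these samples. Maturation replicates 2, 3 and 4 carry the word secretory in 1 of their source labels, against their titles, descriptions and tissue labels, and all 8 arrays were closer to the other arrays of their titled stage.

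Classical cadherins span the cell membrane and bind cadherins of the same kind on the neighbouring cell. Their tails are held by beta-catenin, which carries an alpha-catenin that meets the actin filaments, and by p120-catenin, which keeps the cadherin at the surface. Celsr proteins are seven-pass cadherins that align neighbouring cells within the plane of an epithelium. Ameloblasts secrete the enamel matrix as tall, tightly joined cells that move in rows, and then shorten and change their contacts when they turn to hardening the enamel.

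The arrays showed 3 of these genes lower in the maturation stage, 1 higher and the others within the 1.8-fold threshold or undetected. Ctnna2 (alpha N-catenin, the form of alpha-catenin best known from neurons) was detected by its brighter probe on every secretory array and on 1 maturation array, with a fitted log2 fold change of -7.28 that became -5.56 without background correction and -6.32 with an offset of 50. Celsr2 had a log2 fold change of -3.58, or -2.41 without background correction, and Cdh1 (E-cadherin) was 2.25-fold lower. Cdh3 (P-cadherin) was 2.03-fold higher. The difference was under 1.8-fold for Cdh1 with median scaling or without normalization between arrays. For Cdh3 it was so without background correction or with an offset of 50. The normalized signals of beta-catenin and p120-catenin overlapped between the stages, and Cdh2 was not measured. Of the 9 probes, 5 passed an adjusted p below 0.05 and a 1.8-fold difference, 1 of them higher and 4 lower in the maturation stage, beside 7.75% of all probes in either direction, 4.60% higher and 3.15% lower. The number was 3, all lower, without background correction and likewise with an offset of 50. The stages did not overlap in 5 of the 9 probes, beside 27.7% of all probes. The median difference of the 9 probes was -0.32 on the log2 scale and its median size was 1.02, also with the second Ctnna2 probe at its bound, where all 22523 probes had a median of -0.01 and a median size of 0.12.

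The stretches before the start of Ctnna2 and Celsr2 are shown because these genes had the lowest maturation signals relative to the secretory stage among those measured. The RefSeq table used here held promoters of 5 of the genes in the GRCr8 assembly, and those printed are the 250 bases before each gene start, read 5′ to 3′ on the minus strand of both genes. Ctnna2 is at chr4:112001352-112001601 and Celsr2 at chr2:198741383-198741632. Capitals mark CAGGTG or its reverse complement CACCTG, the E-box letters known for binding Snail and Zeb repressors.
Ctnna2: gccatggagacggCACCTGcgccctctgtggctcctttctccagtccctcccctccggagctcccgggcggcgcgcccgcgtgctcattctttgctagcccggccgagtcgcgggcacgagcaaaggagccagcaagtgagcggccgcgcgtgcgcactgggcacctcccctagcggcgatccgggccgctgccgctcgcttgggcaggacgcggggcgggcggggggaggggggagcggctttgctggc
Celsr2: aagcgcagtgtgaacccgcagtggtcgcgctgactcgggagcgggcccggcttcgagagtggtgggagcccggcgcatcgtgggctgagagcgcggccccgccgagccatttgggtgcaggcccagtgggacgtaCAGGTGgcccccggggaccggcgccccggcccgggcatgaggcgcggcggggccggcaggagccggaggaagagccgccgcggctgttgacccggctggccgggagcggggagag
Each stretch held 1 such match, and at least 1 was held by 15.9% of 33469 promoter windows of the same length, searched on both strands. The wider E-box letters CANNTG, which include the narrower ones, occurred 2 times in each of the 2 stretches, and 65.5% of windows held them at least once. G and C made up 74.4% of the Ctnna2 stretch and 76.4% of the Celsr2 stretch, more than in 96.1% and 97.4% of the windows. The stretches of Ctnnd1 and Celsr3 held no match to either set of letters, and the Ctnnb1 window, which held none of the narrower one, lies inside the gene and not at its start. These are matches of letters and not shown sites of binding.

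**Figure D1:**
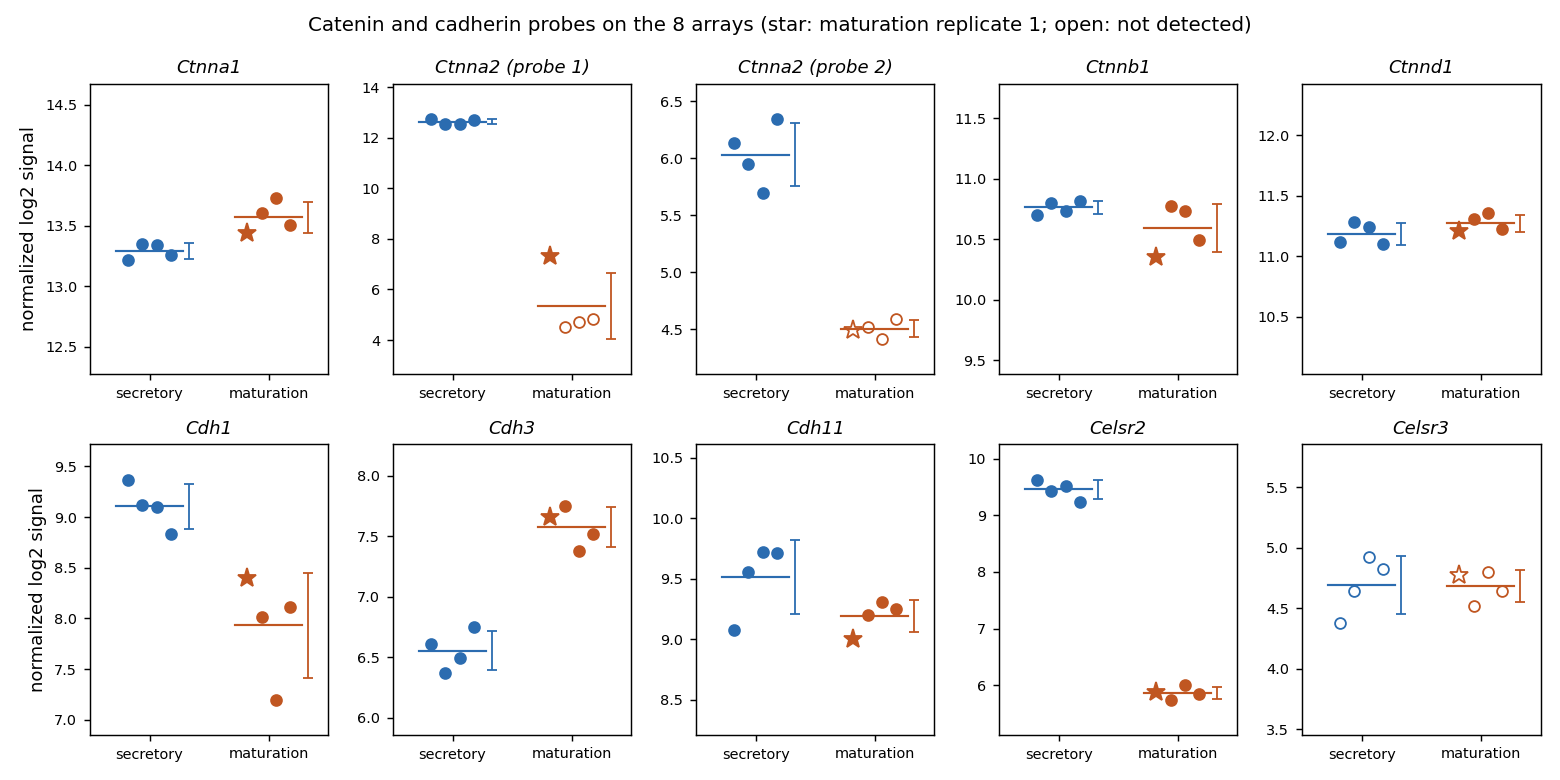
Normalized log2 signal of each probe on the 8 arrays, with lines at stage means and bars of ± 1 SD (n = 4 arrays per stage). Stars are maturation replicate 1 and open symbols are arrays on which the probe was not detected. Ctnna2, Celsr2 and Cdh1 lay lower and Cdh3 higher on every maturation array than on any secretory array, Ctnna1 was higher by less than 1.8-fold, and the other genes overlapped or were undetected.

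Alpha-catenins bind beta-catenin at 1 end and actin at the other. The brighter Ctnna2 probe (ILMN_1354038, chromosome 4 in the array's annotation) read 12.74, 12.56, 12.53 and 12.72 normalized log2 units on secretory arrays 1 to 4. On maturation arrays 1 to 4 it read 7.31, 4.53, 4.73 and 4.85. The secretory arrays were thus all high and close together, whereas maturation replicate 1 stood above the other maturation arrays, on which the probe was not detected. The stage means were 12.64 ± 0.107 and 5.35 ± 1.31 (SD, n = 4 each), a fitted log2 fold change of -7.28 (SE 0.531) with 1 of 4 maturation arrays detecting the probe, so that the fitted value is no measured fold. The difference in rat 1, the 1 rat with a measured value in both stages, was -5.44. After background correction with an offset of 16, the maturation signal was at least 205-fold lower without maturation replicate 1, and at least 192-fold, 192-fold and 220-fold lower in rats 2, 3 and 4. These bounds rest on that correction, since the fitted value over all arrays was -5.56 without it and -6.32 with an offset of 50.

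The second Ctnna2 probe (ILMN_1367200) was much dimmer in the secretory stage and gave the same direction. It read 6.13, 5.95, 5.70 and 6.35 on the secretory arrays and 4.50, 4.52, 4.42 and 4.59 on the maturation arrays, where it was never detected. The stages did not overlap, and the signal was at least 2.12-fold lower in the maturation stage, a bound set against the dimmest detected probes of those arrays. The fitted log2 fold change was -1.53 (SE 0.124). Bound and call rest on the background correction, since the fitted value was -0.58 without it and -0.82 with an offset of 50, both under 1.8-fold. The probe sequences are not given in the sources used here, so transcripts that differ between the probes were not told apart. The 2 probes disagreed on maturation replicate 1, which the second probe placed at 4.50 beside the other maturation arrays, but its secretory signal was itself less than 2 log2 units above that level.

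Ctnna1 (alpha E-catenin, the epithelial form) is read by the probe that the array calls Catna1 (ILMN_1367123, chromosome 18). Its signals were 13.22, 13.35, 13.34 and 13.26 on the secretory arrays and 13.44, 13.60, 13.73 and 13.51 on the maturation arrays. Every maturation array lay above every secretory array, but the step was small. The means were 13.29 ± 0.0641 and 13.57 ± 0.126 (SD, n = 4 each), a log2 fold change of 0.28 (SE 0.0740) or 1.21-fold, under the fold threshold. Signals of different probes cannot be set against each other, so which alpha-catenin was the more abundant in the secretory stage was not read from these arrays.

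Ctnnb1 (beta-catenin, which also serves Wnt signalling in the nucleus) read 10.70, 10.80, 10.73 and 10.81 on the secretory arrays and 10.36, 10.78, 10.73 and 10.49 on the maturation arrays. The stages overlapped, with maturation replicates 1 and 4 lowest. The means of 10.76 ± 0.0525 and 10.59 ± 0.199 (SD, n = 4 each) differed by -0.17 (SE 0.0954) on the log2 scale, and this sign turned to 0.12 with median scaling and 0.31 without normalization between arrays. Ctnnd1 (p120-catenin) read 11.12, 11.28, 11.24 and 11.10 on the secretory arrays and 11.21, 11.31, 11.36 and 11.22 on the maturation arrays. It too overlapped between the stages. Its normalized means of 11.19 ± 0.0904 and 11.27 ± 0.0712 (SD, n = 4 each) differed by 0.09 (SE 0.0661), by 0.34 with median scaling and by 0.54 without normalization. Within the 4 rats the normalized differences were -0.35, -0.02, 0.0027 and -0.32 for Ctnnb1 and 0.09, 0.03, 0.11 and 0.12 for Ctnnd1. The overlap of both genes is that of the normalized values: the deposited signals were 1444 to 1621 and 1790 to 2144 for Ctnnb1, and 1855 to 2251 and 2763 to 3105 for Ctnnd1, in the secretory and the maturation stage, with no overlap. The arrays of the maturation stage were also brighter over all probes, with summed deposited signals of 1.34e+07 to 1.61e+07 against 1.19e+07 to 1.20e+07.

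Cdh1 (E-cadherin, the main cadherin of epithelia; ILMN_1371484, chromosome 19) read 9.37, 9.12, 9.10 and 8.83 on the secretory arrays. On the maturation arrays it read 8.40, 8.02, 7.20 and 8.11. The maturation arrays were all lower and more spread, with replicate 3 lowest and replicate 1 highest. The means of 9.11 ± 0.220 and 7.93 ± 0.516 (SD, n = 4 each) gave a log2 fold change of -1.17 (SE 0.231), and the difference in the 4 rats was -0.97, -1.10, -1.90 and -0.72. The deposited signals did overlap before normalization, at 442 to 615 in the secretory stage and 245 to 542 in the maturation stage. The difference was -0.83 with median scaling and -0.63 without normalization, and neither value passed the 1.8-fold threshold.

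Cdh3 (P-cadherin, found in basal and budding epithelia; ILMN_1373499, also on chromosome 19) was the 1 probe of the 9 past the thresholds in the other direction. It read 6.61, 6.37, 6.49 and 6.75 on the secretory arrays and 7.66, 7.75, 7.37 and 7.52 on the maturation arrays. The stages stood apart with a similar spread in both. The means were 6.55 ± 0.162 and 7.57 ± 0.164 (SD, n = 4 each), a log2 fold change of 1.02 (SE 0.104), and the difference in the 4 rats was 1.05, 1.38, 0.88 and 0.77. It stayed positive but under 1.8-fold without background correction, at 0.61, and with an offset of 50, at 0.81.

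Cdh11 (a cadherin of mesenchyme and bone-forming cells; ILMN_1370705, chromosome 19) read 9.08, 9.56, 9.72 and 9.71 on the secretory arrays and 9.003, 9.20, 9.31 and 9.25 on the maturation arrays. Secretory replicate 1 lay among the maturation arrays, so the stages overlapped. The means of 9.52 ± 0.304 and 9.19 ± 0.134 (SD, n = 4 each) differed by -0.32 (SE 0.142), which became 0.02 with median scaling and 0.22 without normalization. Within the 4 rats the normalized values differed by -0.07, -0.35, -0.41 and -0.46. The fibroblast and dental mesenchyme markers, 9 probes with all detected, summed to normalized signals of 74020 to 85580 in the secretory stage and 88497 to 92510 in the maturation stage. Their log2 differences went both ways, from 0.97 for Thy1 to -0.32 for Postn, with a median of 0.16 and 1 probe called. The part of these cells in the Cdh11 values was not tested.

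Celsr2, a seven-pass cadherin of planar cell polarity (ILMN_1375074, chromosome 2), was detected on all 8 arrays. It read 9.63, 9.44, 9.52 and 9.24 on the secretory arrays and 5.88, 5.75, 6.01 and 5.84 on the maturation arrays. The stages were far apart, and maturation replicate 1 lay within the other maturation arrays. The means of 9.45 ± 0.164 and 5.87 ± 0.108 (SD, n = 4 each) gave a log2 fold change of -3.58 (SE 0.0921), with -3.75, -3.69, -3.51 and -3.40 in the 4 rats. It was -2.41 without background correction and -2.99 with an offset of 50, past the thresholds in both. Celsr3, its relative best known from axon guidance (ILMN_1363813, chromosome 8), was detected on no array, at normalized values of 4.38 to 4.92, and no fold is read from its fitted value.

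**Figure D2:**
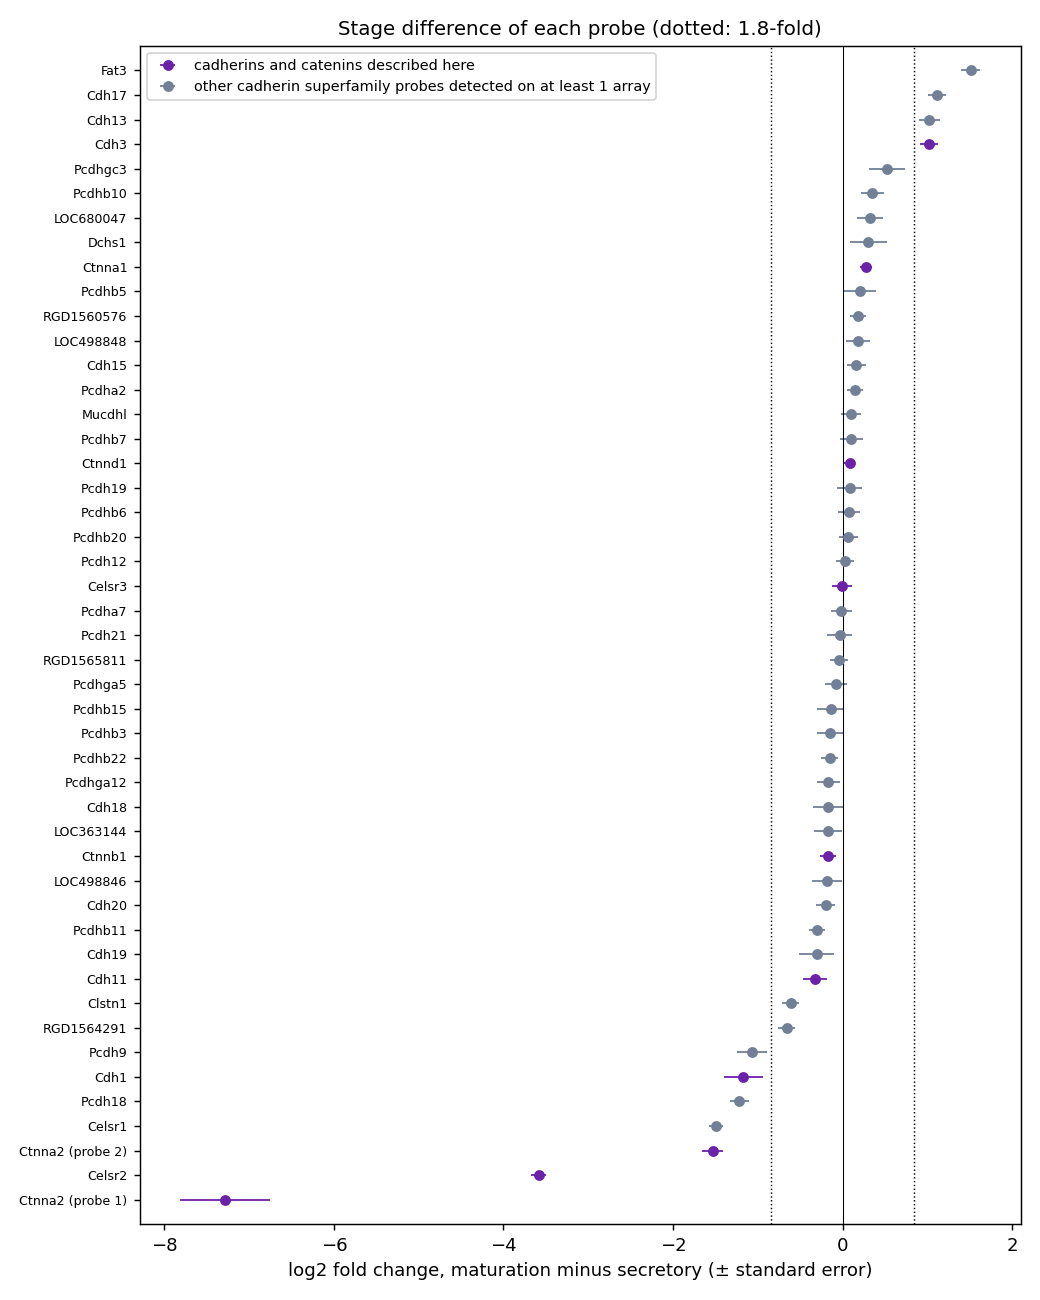
Log2 fold change, maturation minus secretory, of the catenin and cadherin probes (purple) and of other cadherin superfamily probes (grey). The grey probes were matched by symbol, without the desmosomal cadherins, and detected on at least 1 array. Bars are ± 1 standard error from the limma fit and dotted lines mark 1.8-fold. The brighter Ctnna2 probe at -7.28 and Celsr2 at -3.58 lay farthest from 0, and Fat3 at 1.51 was the highest.

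Maturation replicate 1 was read on its own, an array singled out with its values known, so what follows is a description. The normalized reading of the brighter Ctnna2 probe there was 2.60 log2 units above the mean of maturation replicates 2 to 4, and the median size of this difference over 13512 probes detected on at least 1 array was 0.147. Since those 3 arrays did not detect the probe, its background-corrected signal on replicate 1 was at least 5.11-fold above theirs. The deposited signal of this probe there was 306 with a standard error over 57 beads of 11.5, against 110, 114 and 124 on the other maturation arrays, and 5227 to 6080 on the secretory arrays. The reading was thus well above those of the other maturation arrays and far below every secretory array.

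Cdh1 was 0.63 above the mean of the other maturation arrays there. The other probes past the thresholds lay closer, with 0.01 for Celsr2, 0.11 for Cdh3 and -0.01 for the second Ctnna2 probe. Ctnnb1, Cdh11, Ctnna1 and Ctnnd1 were lower there than on the other maturation arrays by differences of -0.31, -0.25, -0.17 and -0.09. In size, the differences of the brighter Ctnna2 probe and of Cdh1 exceeded those of 99.98% and 97.6% of the 13512 detected probes. Both lay toward the secretory signals. For Ctnnb1, Cdh11, Ctnna1 and Ctnnd1 these shares were 82.2%, 73.4%, 57.0% and 31.9%.

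The summed level of the secretory ameloblast markers was also highest, among the maturation arrays, on replicate 1. Over 5 probes the summed normalized signal was 52998 on that array, 30704 to 44033 on the other maturation arrays and 59916 to 65055 on the secretory arrays. Amelx and Ambn, at 14.81 and 14.53 log2 units on replicate 1, make up most of this sum, and neither was called between the stages. Enam (enamelin, an enamel matrix protein) read 9.08, 5.17, 5.53 and 8.22 on maturation arrays 1 to 4 against a secretory mean of 11.98. Mmp20 (enamelysin, the protease that trims that matrix) read 6.96, 5.92, 5.55 and 6.30 against 10.21. Both were highest on replicate 1 and next on replicate 4. The brighter Ctnna2 probe had the same 2 arrays in that order, at 7.31 and 4.85, but was not detected on replicate 4. It was not detected on replicates 2 and 3 either, at 4.53 and 4.73. Dspp, a further gene of that list, was not detected on any maturation array. The part of these cells in the Ctnna2 and Cdh1 readings was not tested.

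**Figure D3:**
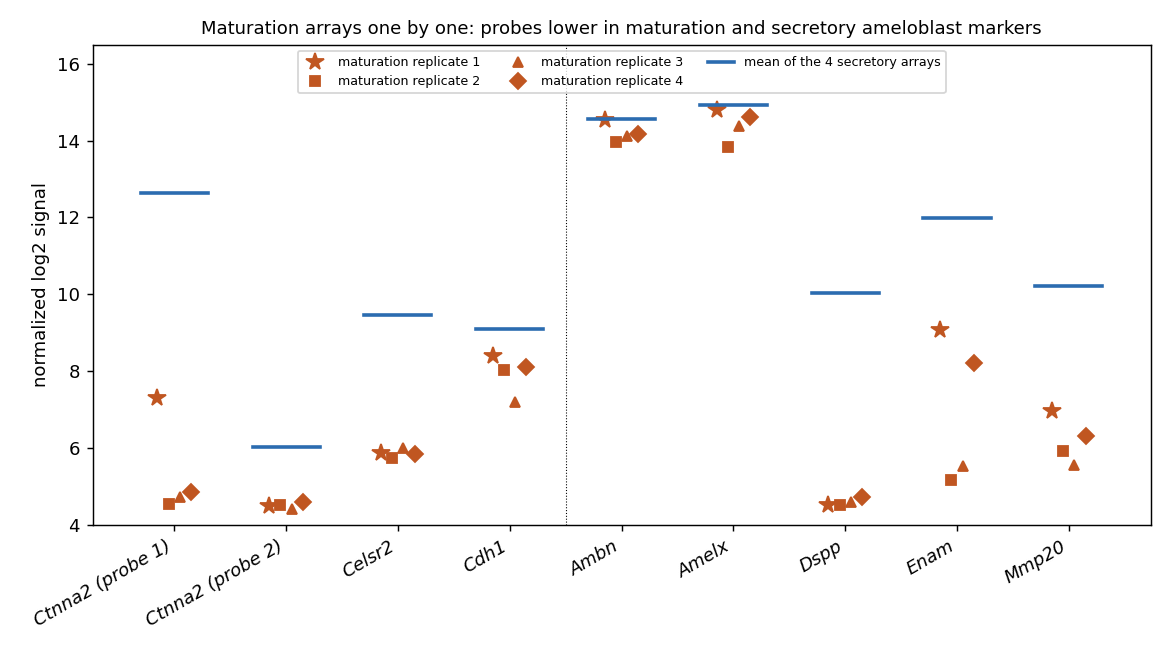
Normalized log2 signal on each maturation array (orange symbols) and mean of the 4 secretory arrays (blue lines), for the probes lower in the maturation stage on the left and the secretory ameloblast markers on the right. Replicate 1 is the highest maturation array for the brighter Ctnna2 probe, at 7.31, and for Cdh1, Ambn, Amelx, Enam and Mmp20.

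Since Ctnna2 is best known from neurons, the neuronal markers are given beside it. Of their 12 probes, 5 were undetected, and the summed signal was 2209 to 3054 in the secretory and 3065 to 3693 in the maturation stage. Tubb3 (a neuronal tubulin) was lower in the maturation stage by a log2 fold change of -2.58, and Snap25 (of synaptic vesicle release) was higher, at 9.02 against undetected. The Schwann cell list of 7 probes summed to 2685 to 3536 in the secretory and 4768 to 6232 in the maturation stage. The median difference of the neuronal list was 0.02, so its sum, of which Gap43 makes up most, gives it no direction as a list.

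For the epithelial cadherins, the 6 probes of other enamel organ epithelium summed to 29020 to 32556 in the secretory and 34058 to 39015 in the maturation stage. Among these, 1 probe was called higher and 1 lower. Maturation ameloblast markers summed to 417 to 535 in the secretory and 21786 to 25631 in the maturation stage, leukocyte markers to 3981 to 4753 and 10850 to 13985, endothelial markers to 5386 to 6656 and 7294 to 9228, and skeletal muscle markers to 354 to 741 and 301 to 1037. The part of any of these cell types in the cadherin and catenin values was not tested.

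The probes whose 8 values were most like those of the brighter Ctnna2 probe were Fxyd4 (a regulator of the sodium pump), Dspp (dentin sialophosphoprotein) and Ly6d. After each probe was centred on its own mean, they differed from it by a root mean square of 1.06, 1.29 and 1.35 log2 units over the 8 arrays. All 3 were detected on the secretory arrays and on no maturation array. For Cdh1 the nearest were Tuba8 (an alpha-tubulin), Lgals7 (galectin-7, an epithelial lectin) and LOC363861, named as similar to a ribosomal protein, at 0.191, 0.205 and 0.208.

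Other cadherin superfamily genes were matched by a symbol pattern, which did not cover the desmosomal cadherins. They comprised 82 probes, of which 45 were undetected on every array. Those called were 3 higher and 3 lower, or 7.32%, close to the 7.75% of all probes, and the median difference was 0.01. Fat3 (a giant cadherin) rose by 1.51 on the log2 scale (SE 0.114, limma adjusted p = 8.16e-06), Cdh17 (liver-intestine cadherin) by 1.11 (adjusted p = 3.38e-05) and Cdh13 (T-cadherin, which lacks the tail that binds catenins) by 1.02 (adjusted p = 1.88e-04). Pcdh18 and Pcdh9, both protocadherins, fell, with log2 fold changes of -1.22 (adjusted p = 2.94e-05) and -1.07 (adjusted p = 0.00138), the latter detected on 2 maturation arrays. Celsr1, the third seven-pass cadherin, fell from 6.32 ± 0.0760 to 4.83 ± 0.148 (SD, n = 4 each), a fitted log2 fold change of -1.49 in limma (SE 0.0819, adjusted p = 1.11e-06). It was detected on 1 maturation array, so the fitted value is no measured fold. Celsr1 and Celsr2 were thus both lower, and Celsr3 was undetected. Without background correction 1 of the 6 probes passed the 1.8-fold threshold. Cdh17 with an offset of 50, at 0.77, and Pcdh18 without normalization, at -0.68, were under it, as was Pcdh9 with an offset of 50, at -0.63, with normexp without negative controls, at -0.84, and without normalization, at -0.70.

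Planar polarity partners of the Celsr proteins were read by 13 probes, of which 3 fell and none rose (23.1%, against 7.75% of all probes), with a median of -0.16. With median scaling 1 was called higher and 2 lower, and without normalization 1 higher and 1 lower. Vangl2, the membrane protein that works opposite Frizzled in the polarity complex, fell with a log2 fold change of -1.46 (SE 0.112, limma adjusted p = 9.83e-06). Fjx1, a relative of the four-jointed kinase that acts on Fat cadherins, fell with -1.31 (adjusted p = 5.30e-05), and was under 1.8-fold without background correction, at -0.75, and without normalization, at -0.81. Prickle1, the cytoplasmic partner of Vangl2, fell with -0.91 (adjusted p = 8.75e-06), but with -0.84, -0.61 and -0.42 under cyclic loess, median scaling and no normalization it was under 1.8-fold.

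Among 55 probes of adapters and regulators of the adherens junction, 4 rose and 2 fell (10.9%, against 7.75% of all probes), with a median of 0.13. Pvrl3 (nectin-3, an adhesion receptor beside cadherins) rose by 1.72 (SE 0.0728, limma adjusted p = 2.65e-07), Pkp4 (p0071, of the p120 family) by 1.28 (adjusted p = 1.19e-05) and Ptpn1 (a tyrosine phosphatase found at cadherins) by 1.10 (adjusted p = 1.69e-04). Myo7a, a myosin, was undetected in the secretory stage, so that its maturation signal was higher by at least 1.77-fold (fitted value 1.19, adjusted p = 2.98e-06). Ctnnd2 (delta-catenin, the neural relative of p120-catenin) fell with a fitted value of -2.24 (SE 0.218, adjusted p = 4.51e-05), also no measured fold, since 1 maturation array detected it. Lmo7 (which links nectins to actin) fell with -1.78 (adjusted p = 3.13e-05). Jup (plakoglobin, the close relative of beta-catenin), chosen after its values were seen, read 10.92 ± 0.0520 and 10.10 ± 0.110 (SD, n = 4 each) in the maturation and the secretory stage, and its log2 difference of 0.82 (limma adjusted p = 1.58e-05) was just under the fold threshold. The number called rose to 15 with median scaling, 13 higher and 2 lower, and to 20 without normalization, 18 higher and 2 lower. Without background correction Ptpn1, at 0.85, and Myo7a, at 0.42, were under the fold threshold, and Myo7a was at 0.63 with an offset of 50.

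Of 24 probes listed for the partners of beta-catenin in Wnt signalling, none rose and 2 fell (8.33%, close to the 7.75% of all probes), with a median of -0.04. Among them Tcfe2a, at -0.64 and not called, entered only by its current symbol Tcf3. The array gives that name to another gene, now Tcf7l1, so Tcfe2a is not meant as such a partner. With median scaling 1 was called higher and 2 lower, and without normalization 2 higher and 2 lower. Tcf7 (a transcription factor that beta-catenin binds) fell from 9.40 ± 0.192 to 7.04 ± 0.202 (SD, n = 4 each), a log2 fold change of -2.36 in limma (SE 0.122, adjusted p = 8.04e-07). Axin2 (a scaffold for the breakdown of beta-catenin and a known target of the pathway) was undetected in the maturation stage and at least 1.99-fold lower (fitted value -1.40, adjusted p = 5.43e-05). The number called was 1 without background correction or with an offset of 50, Axin2 being under the fold threshold in both settings.

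Repressors of cadherin genes and proteases that cut cadherins made up 19 probes, of which 4 rose and 1 fell (26.3%, against 7.75% of all probes), with a median of -0.05. Among the repressors, Snai1 (Snail, known to repress Cdh1) rose from 8.75 ± 0.218 to 10.24 ± 0.172 (SD, n = 4 each), a log2 fold change of 1.48 in limma (SE 0.122, adjusted p = 1.50e-05). Twist2 fell with -1.63 (adjusted p = 1.03e-05) and was detected on 2 maturation arrays. Zeb1, Snai3 and Twist1, with -0.34, -0.22 and 0.06, were under the fold threshold. Among the proteases, Mmp9 rose 7.99-fold (log2 SE 0.271, adjusted p = 2.80e-05), Adam15 by 1.11 on the log2 scale (adjusted p = 3.40e-05) and Mmp14 by 0.90 (adjusted p = 1.19e-04). Mmp14 was at 0.79, under the fold threshold, without secretory replicate 4, and Adam15 and Twist2 were at 0.63 and -0.64 without background correction. Adam10, the main protease known to cut E-cadherin, was under the fold threshold by both its probes, at -0.49 and -0.34. Leukocyte markers, whose cells are known to make Mmp9, were called higher for 7 of 11 probes, and their part in the Mmp9 value was not tested. Any relation of these genes to the Cdh1 and Cdh3 signals was not tested.

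**Figure D4:**
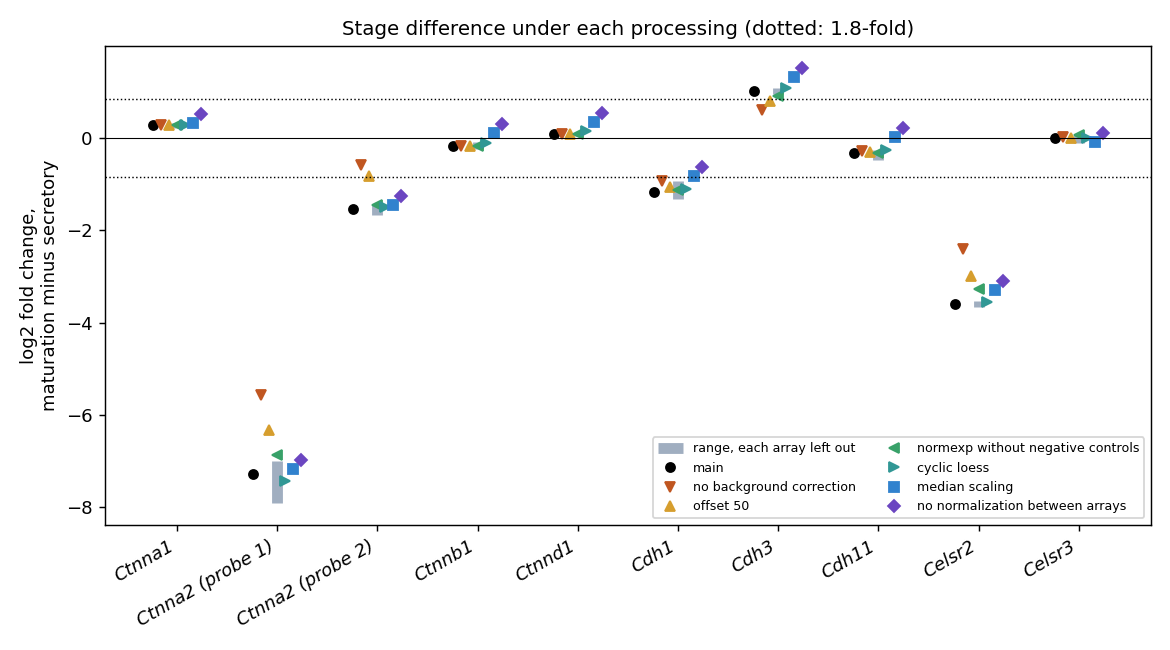
Fitted log2 fold change, maturation minus secretory, of each catenin and cadherin probe under each way of processing the signals (symbols) and its range when each array is left out (grey bars); dotted lines mark 1.8-fold. Ctnna2, Celsr2 and Cdh1 stayed below 0 and Cdh3 above 0 throughout, whereas Ctnnb1 and Cdh11 changed sign with median scaling and without normalization. Celsr3, detected on no array, is drawn near 0 on either side, and its sign is not read.

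Across these ways of processing, the fitted value of the brighter Ctnna2 probe ranged from -7.43 to -5.56 and Celsr2 from -3.58 to -2.41, and both passed the thresholds under each of them. The fitted value of the second Ctnna2 probe ranged from -1.53 to -0.58 and passed no fold threshold without background correction or with an offset of 50. When single arrays were left out, the second Ctnna2 probe stayed at least 1.97-fold to 2.29-fold lower, and the fitted value of the brighter one was -7.00 at its smallest; without maturation replicate 1 only a bound can be read for it. The same gave -3.67 to -3.53 for Celsr2, -1.33 to -0.93 for Cdh1 and 0.96 to 1.09 for Cdh3. The stages did not overlap in any of these probes, so leaving out single arrays was no test of their direction.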

How the data were processed

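Total RNA of enamel organ samples of 4 rats, 1 per stage and rat, was measured on 8 arrays. The values deposited for a probe are its bead signals averaged per array, an intensity without background correction or normalization, with the standard error of the bead signals on the same intensity scale. The deposited table also holds the detection p-value, set by the control beads of the array, and the number of beads. Summary software and build are not given in the sources used here, nor is the chip of each array. Arrays had 10667 to 11450 detected probes (detection p below 0.05) and medians of 41 to 42 beads; the number of arrays limits the precision.

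Signals were processed with limma 3.58.1 in R 4.3.3 (Python 3.11.15 for the other steps): neqc with an offset of 16, quantile normalization and log2 values. All 22523 probes entered lmFit and eBayes without a block, and calls needed both 1.8-fold and an adjusted p (Benjamini-Hochberg over all probes) below 0.05, the thresholds of the methods. Where none of a stage's arrays detected a probe, it is called undetected in that stage, and its fold is a bound from the lowest detected signal. On simulated arrays with 200 changed probes among 22523, 93% were recovered and 0 unchanged probes called. Summed marker levels add the normalized signals on the linear scale.

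The genes and lists were chosen with earlier results of these data known. Every probe of the 10 genes is named, and from each list of neighbouring genes the called probes with the largest differences, at most 6 per direction; current symbols came from RefSeq by gene ID for 17430 probes. Replicate numbers pair the samples, since both stages came from each rat: within a rat, deviations from stage means correlated at 0.195, 0.129, 0.219 and 0.234 over 11233 probes. Alternatives were normexp without negative controls, an offset of 50, no background correction, median scaling, cyclic loess, no normalization, a filter on detection (at least 4 arrays), the Student test of the methods, an adjusted p below 0.01, the rat as a block and each array left out. Adding the Ctnna1 probe was chosen after seeing the data.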

Additional observations from a re-analysis of the deposited data

Results flagged for a closer look

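Of 59 sets of 4 arrays examined, 5 had an array far from the other 3 by Dixon's criterion, which chance alone passes in about 5% of sets. The first of them was known when the genes were chosen and is no finding here: the brighter Ctnna2 probe read 7.31 on maturation replicate 1 and 4.53 to 4.85 on the other maturation arrays. Ptpn1 read 7.34 on secretory replicate 4 and 7.80 to 7.88 on the other secretory arrays. Ctnnd2 read 5.04 on maturation replicate 2 and 4.66 to 4.68 on the others of that stage. Mmp14 read 11.50 on maturation replicate 3 and 11.39 to 11.40 on the others. Snai1 read 10.49 on maturation replicate 4 and 10.11 to 10.17 on the others.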

How the results depend on the processing

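The number of catenin and cadherin probes called, 5, was 3 without background correction and 3 with an offset of 50, and 5 with any array left out. Without background correction the other cadherins had 1 called in place of 6, the beta-catenin partners 1 in place of 2 and the repressors and proteases 3 in place of 5; an offset of 50 left 1 beta-catenin partner, and no normalization gave 4. The junction adapters had 6 called, 15 with median scaling and 20 without normalization. Over all probes 1745 were called (59.3% higher in the maturation stage), 927 without background correction, 2075 with median scaling (77.6% higher) and 2600 without normalization (87.2% higher), where the median of all probes was 0.13. With the rat as a replicate block the counts were 5, 6, 6, 3, 2 and 5 for the catenins and cadherins, the other cadherins, the adapters, the polarity partners, the beta-catenin partners and the repressors and proteases, the same as without the block. Counts with each array left out were 6 for the other cadherins, 6 to 8 for the adapters, 3 for the polarity partners, 2 to 3 for the beta-catenin partners and 4 to 6 for the repressors and proteases. Dim probes are limited by signal over background, and the cause of these differences was not tested.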
